A study of Mus musculus with 7 samples.

Results

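Transcripts of 9 synaptic adhesion genes were followed in mouse brain RNA-seq: the neurexins Nrxn2 and Nrxn3, the neuroligins Nlgn1, Nlgn2 and Nlgn3, and the leucine-rich repeat transmembrane genes Lrrtm1, Lrrtm2, Lrrtm3 and Lrrtm4. They were taken by symbol from the deposited table of 55367 genes, and all 9 were found and passed the filter on low counts. The libraries came from C57BL/6J mice labelled P90 and hold total RNA of neurons in the medial prefrontal cortex with axons to the lateral habenula, per the labels. There were 4 libraries labelled CRS and 3 labelled noCRS. The series concerns chronic stress, and its design text names this single contrast. The labels give no genotype, sex or stress protocol, and they do not say how the neurons were marked or isolated. Nor do they say that each library is a separate animal, and the p-values below reflect the spread among libraries, part of which may be technical.

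Neurexins are presynaptic membrane proteins that reach across the synaptic cleft. Neuroligins and Lrrtm proteins are postsynaptic partners that bind them, and these contacts help to organise transmitter release on one side and receptors on the other. Neuroligin 1 is found mainly at excitatory synapses, neuroligin 2 mainly at inhibitory synapses, and neuroligin 3 at both. The Lrrtm proteins are known for recruiting and holding AMPA receptors at excitatory synapses, and Lrrtm3 and Lrrtm4 also bind heparan sulfate proteoglycans. Several of these genes are transcribed in glia as well, and Nlgn3 is known from mouse oligodendrocyte precursors and astrocytes.

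Library totals ran from 28677703 to 39965667 counts. CRS replicate 2 stood apart on the first principal component (30.4% of the variance) and had the fewest detected genes (16938). RNA of several cell type marker lists differed between the groups, and whether the cell content itself differed was not tested. A list of 10 neuronal markers, most of them of excitatory cortical neurons, was led by Snap25 and Nrgn. Summed over this list, the level was 2605 to 4136 CPM (counts scaled to a common library total with TMM factors) in CRS and 124 to 257 CPM in noCRS. Most of the sum was Snap25, a gene of neurons in general, at 2090 to 3503 CPM in CRS and 102 to 217 CPM in noCRS. For 9 of these 10 markers every CRS library was above every noCRS library, as was so for 10.1% of all tested genes. The glutamate transporter Slc17a7, a marker of cortical excitatory neurons in general, was low in CRS and near or at 0 in noCRS. It measured 6.77 to 13.5 CPM in CRS, and in noCRS it was at 0 in replicates 2 and 3 and at 0.60 CPM in replicate 1. Inhibitory neuron markers, led by Sst and Gad1, summed to 208 to 893 CPM in CRS and 62.9 to 65.6 CPM in noCRS, with 4 of 6 tested higher without overlap. The other 2 of the list, Slc32a1 and Lhx6, were too low to test: Slc32a1 measured 0 to 0.13 CPM in CRS and 0 in noCRS, and Lhx6 measured 14.4 CPM in CRS replicate 2 and 0 in every other library. Glial transcripts were abundant in both groups. The 9 astrocyte markers, led by Apoe and Aldoc, summed to 6404 to 13262 CPM in CRS and 11066 to 14374 CPM in noCRS, with 1 higher and 1 lower without overlap. Markers of oligodendrocyte precursors, led by Pdgfra and Olig1, summed to 1274 to 1765 CPM in CRS and 2229 to 2556 CPM in noCRS, and 6 of 8 were lower without overlap, beside 6.74% of all tested genes. The 8 markers of mature oligodendrocytes, Cnp among them, summed to 26561 to 52279 CPM in CRS and 32132 to 37181 CPM in noCRS. Microglial markers, P2ry12 among them, stood at 84.3 to 122 CPM in CRS and 91.8 to 135 CPM in noCRS, and endothelial and mural markers, led by Rgs5 and Vtn, at 142 to 682 CPM in CRS and 95.3 to 302 CPM in noCRS.

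**Figure D1:**
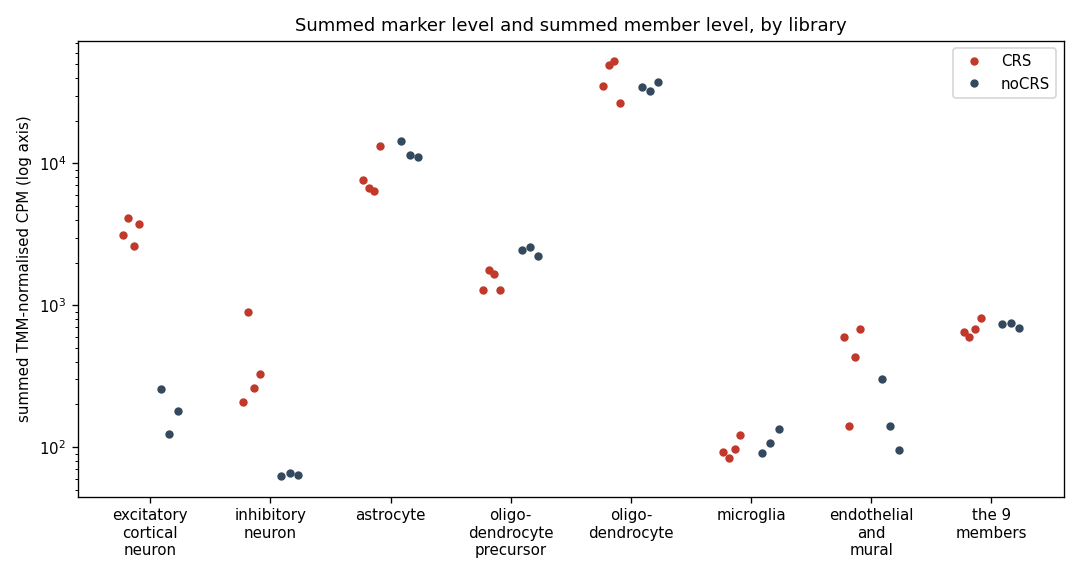
Summed TMM-normalised CPM (log axis) of each cell type marker list and of the 9 adhesion genes, 1 point per library, CRS left and noCRS right within each list. The excitatory neuron list, most of whose sum is the general neuronal gene Snap25, stands at 2605 to 4136 CPM in CRS and 124 to 257 CPM in noCRS. The adhesion genes overlap between the groups.

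None of the 9 adhesion genes was called different between CRS and noCRS. The quasi-likelihood test of edgeR, adjusted over 17833 genes by Benjamini-Hochberg at a threshold of 0.05, called 410 genes (2.30%), 369 of them higher in CRS (248 of 312 with scaling to total counts alone). Of the 9 adhesion genes it called 0. In the same fit 0 of 9 had an unadjusted p below 0.05, against 13.6% of all tested genes, and 0 of 9 were called by DESeq2 (9.14% of its genes) or by limma-voom (3.58%). By unadjusted p under 0.05, DESeq2 had 1 of 9 (Nrxn2, lower in CRS), beside 20% of its genes, and limma-voom had 2 of 9 (Nrxn3 higher and Lrrtm1 lower in CRS), beside 18.3% of its genes. The fold changes were negative for 6 genes and positive for 3, with a median log2 fold change (CRS over noCRS) of -0.14, beside -0.02 over all tested genes. The median size of the change, sign aside, was 0.45 on the log2 scale for the members and 0.55 for all tested genes. In bulk RNA, fewer cells of a type and less RNA per cell cannot be told apart, and the part of the neuronal and glial marker differences in these values was not tested. Summed over the 9 genes, transcripts per exon length came to 108 to 133 CPM per kilobase in CRS and 126 to 136 CPM per kilobase in noCRS, and these ranges overlapped.

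A missed threshold does not show that a gene was equal in both groups, so the 95% interval of each fold change matters here. For Nlgn1, Lrrtm2 and Lrrtm3 the interval lay within 2-fold in either direction. For the other 6 genes it reached beyond 2-fold on at least 1 side, and for Lrrtm4 it ran from 0.108-fold to 8.14-fold. Groups did not overlap for 1 of 9 genes, Lrrtm1, beside 16.9% of all tested genes.

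**Figure D2:**
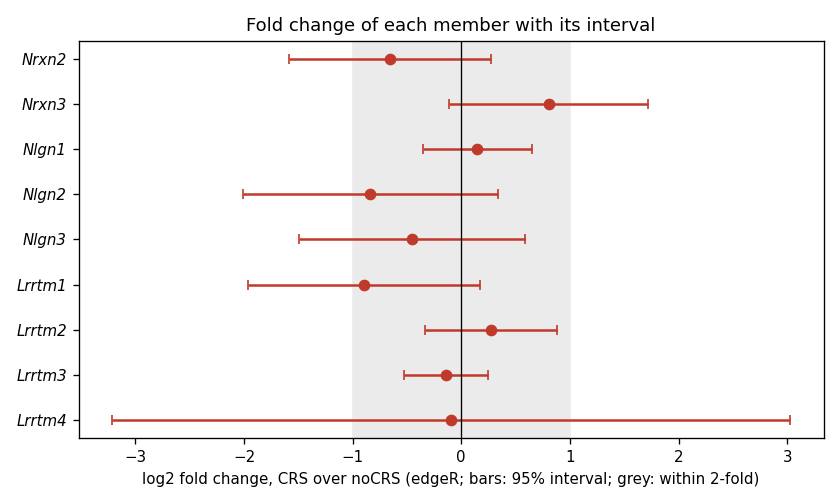
Log2 fold change of each adhesion gene, CRS over noCRS, from edgeR (points) with 95% intervals (bars), the grey band marking changes within 2-fold. The intervals of Nlgn1, Lrrtm2 and Lrrtm3 lie inside the band, every interval includes 0, and that of Lrrtm4 spans from -3.21 to 3.03.

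Nrxn2 (chromosome 19, 6418731 to 6544169 on GRCm38, plus strand) and Nrxn3 (chromosome 12, 88722876 to 90334935, plus strand) encode the presynaptic side of the pair. Each gene makes long and short forms from separate start sites, and the gene counts do not separate them. Nrxn2 measured 10.5, 11.6, 12.3 and 20.4 CPM in CRS replicates 1 to 4, against 20.1, 25.0 and 19.6 CPM in noCRS replicates 1 to 3. CRS replicates 1 to 3 lay below every noCRS library, and CRS replicate 4 lay within the noCRS range. The means were 13.7 ± 4.51 CPM in CRS and 21.5 ± 2.99 CPM in noCRS (SD, n = 4 and 3), a log2 fold change of -0.66 ± 0.41 (SE; edgeR adjusted p = 0.598).

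The Nrxn3 fold change had the opposite sign. Nrxn3 measured 39.8, 26.4, 49.5 and 73.1 CPM in CRS, against 27.8, 18.1 and 35.2 CPM in noCRS. CRS replicate 2 lay inside the noCRS range and the other CRS libraries above it. The means were 47.2 ± 19.7 CPM in CRS and 27.03 ± 8.53 CPM in noCRS, 1.75-fold apart, with a log2 fold change of 0.80 ± 0.40 (SE; edgeR adjusted p = 0.449). Nrxn3 had the smallest p of the 9 genes, and ranked 3064 by p among the 17833 genes tested.

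Within a library, the balance of these genes does not depend on how libraries are scaled. Counted per kilobase of exon, Nrxn2 made up 19.5, 28.7, 18.6 and 20.4% of the Nrxn2 and Nrxn3 sum in CRS, against 39.9, 55.8 and 33.8% in noCRS. Every CRS library held a smaller Nrxn2 share than every noCRS library, and the means were 21.8 ± 4.69% in CRS and 43.2 ± 11.4% in noCRS (SD, n = 4 and 3). With raw counts in place of counts per kilobase the shares were 23.3 ± 4.90% in CRS and 45.2 ± 11.4% in noCRS, again without overlap. The sum of the 2 genes was 2.92 to 7.24 CPM per kilobase in CRS and 3.24 to 4.19 in noCRS. No test was made of these shares, since the genes were chosen with earlier results of the data known. By level, Nrxn2 and Nrxn3 each overlapped between the groups, while 16.9% of all tested genes did not. How often the share of a gene pair separates these groups was not computed, so the separation cannot be read as particular to this pair. Of the Nrxn2 exon length 6.44% overlaps exons of Gm14964 and Slc22a12 on the other strand. Slc22a12 had 0 counts in all 7 libraries, and Gm14964 measured 2.54 to 10.97 CPM in CRS and 0.65 to 4.72 CPM in noCRS. For Nrxn3 the overlap was 3.46%.

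**Figure D3:**
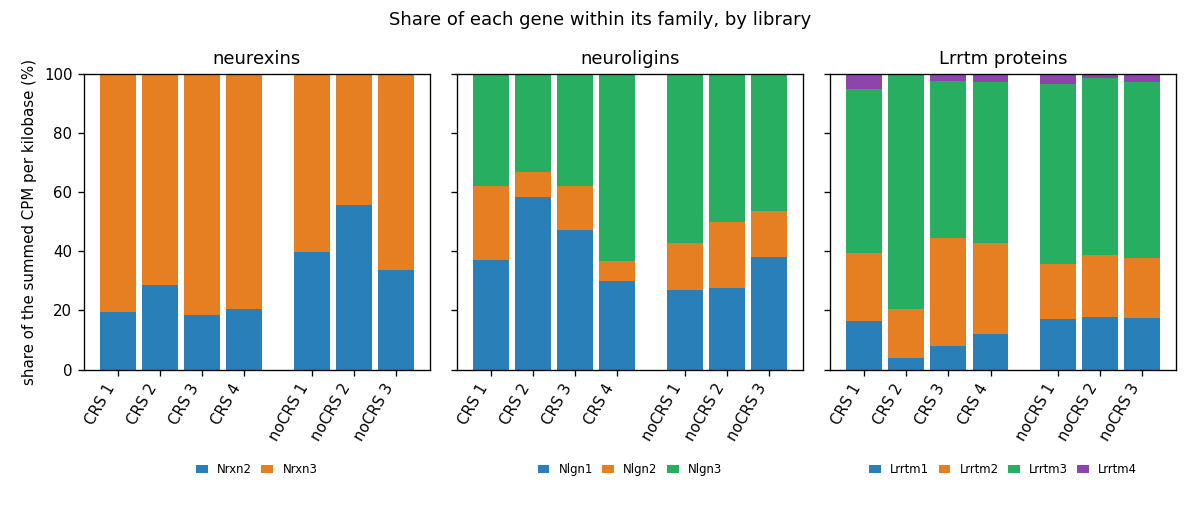
Share of each gene in the summed CPM per kilobase of its family (percent, 1 stacked bar per library, CRS libraries left of noCRS libraries). The Nrxn2 share is 18.6 to 28.7% in CRS and 33.8 to 55.8% in noCRS, and the Lrrtm1 share is 4.02 to 16.6% in CRS and 17.1 to 17.8% in noCRS.

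Among the neuroligins, Nlgn1 (chromosome 3, 25426215 to 26332460, minus strand) differed least. Its level was 59.7, 95.9, 101.6 and 94.1 CPM in CRS and 74.9, 83.0 and 79.8 CPM in noCRS. CRS replicate 1 lay below the noCRS libraries and the other 3 above them. The means of 87.9 ± 19.0 CPM in CRS and 79.3 ± 4.08 CPM in noCRS gave a log2 fold change of 0.15 ± 0.22 (SE; edgeR adjusted p = 0.884), with an interval from 0.783-fold to 1.57-fold. Scaling by total counts alone turned this value to -0.015, while it moved the median of all genes by -0.16, and relative to that median Nlgn1 was at 0.16 under both scalings. Of its exon length 9.16% overlaps exons of A830092H15Rik on the other strand.

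Nlgn2 (chromosome 11, 69823122 to 69837784, minus strand), the neuroligin of inhibitory synapses, had the lowest level of the 3 per kilobase of exon. It measured 17.4, 5.99, 13.7 and 9.02 CPM in CRS and 19.0, 29.0 and 14.0 CPM in noCRS. CRS replicate 1 lay within the noCRS range and the other CRS libraries below it. The means were 11.5 ± 5.05 CPM in CRS and 20.6 ± 7.64 CPM in noCRS, and the log2 fold change was -0.84 ± 0.51 (SE; edgeR adjusted p = 0.590). Gad1, the GABA-making enzyme of the neurons that supply such synapses, measured 72.5 to 162 CPM in CRS and 22.8 to 30.3 CPM in noCRS. CRS replicate 2 had the highest Gad1 level and the lowest Nlgn2 level of the 7 libraries. That library was also the lowest for Nlgn3, Lrrtm1, Lrrtm2 and Lrrtm4, and a link between Gad1 and Nlgn2 was not tested.

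Nlgn3 (chromosome X, 101299168 to 101325963, plus strand) varied most among CRS libraries of the neuroligins. Levels were 42.4, 37.6, 56.4 and 137 CPM in CRS and 110.1, 103 and 67.0 CPM in noCRS. CRS replicates 1 to 3 lay below every noCRS library, and CRS replicate 4 lay above all of them. The CRS mean of 68.4 ± 46.6 CPM became 45.5 CPM without CRS replicate 4, against 93.5 ± 23.2 CPM in noCRS. With all libraries the log2 fold change was -0.45 ± 0.45 (SE; edgeR adjusted p = 0.814), without CRS replicate 4 it was -1.06 (adjusted p = 0.132), and without any other single library it was -0.64 to -0.27. CRS replicate 4 also had the highest summed astrocyte marker level in CRS, 13262 CPM against 6404 to 7609 CPM in the other CRS libraries and 11066 to 14374 CPM in noCRS; the part of astrocyte RNA in the Nlgn3 values was not tested. The oligodendrocyte precursor markers of that library had the lowest sum, 1274 CPM, with CRS replicate 1 close to it at 1287 CPM. Pdgfra alone measured 675 CPM in CRS replicate 4 and 498 CPM in CRS replicate 1. The part of precursor RNA in the Nlgn3 values was not tested either. The Nlgn3 count is uncertain, because 41.2% of its exon length is shared with Gm21986, a transcript on the same strand that measured 6.46 to 19.0 CPM in CRS and 21.4 to 42.7 CPM in noCRS. The sources used here do not say how reads in shared exons were counted.

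Per kilobase, Nlgn1 made up 30.0 to 58.4% of the neuroligin sum in CRS and 26.9 to 38.2% in noCRS. The Nlgn3 share was 33.1 to 63.3% in CRS and 46.4 to 57.3% in noCRS. Nlgn2 held 6.67 to 25.0% in CRS and 15.5 to 22.4% in noCRS. All 3 shares overlapped between the groups. Nlgn3 was ahead of Nlgn1 in every noCRS library, and in CRS in replicates 1 and 4.

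Lrrtm1, Lrrtm2 and Lrrtm3 had the highest mean levels per kilobase of the 9 genes in both groups. Lrrtm1, Lrrtm2 and Lrrtm3 each lie inside another gene on the opposite strand, the alpha-catenin genes Ctnna2, Ctnna1 and Ctnna3. The libraries do not mark strand, so unspliced host RNA that covers an Lrrtm exon could not be told from Lrrtm RNA. Beside the values below, Ctnna2 measured 74.0 ± 21.1 CPM in CRS and 79.4 ± 14.9 CPM in noCRS. Ctnna1 measured 197 ± 24.5 CPM in CRS and 161 ± 66.3 CPM in noCRS. Ctnna3 measured 3.82 ± 3.64 CPM in CRS and 4.38 ± 1.91 CPM in noCRS (SD, n = 4 and 3). None of these host genes passed the test, and their part in the Lrrtm values was not tested.

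Lrrtm1 (chromosome 6, 77242689 to 77257791, plus strand) was the gene whose groups did not overlap. It measured 52.8, 11.3, 21.7 and 38.0 CPM in CRS, against 56.2, 59.8 and 56.7 CPM in noCRS. The noCRS libraries were nearly equal, with a coefficient of variation of 3.36%, and the CRS libraries spread from close to the noCRS level in replicate 1 down to replicate 2. The means were 31.0 ± 18.3 CPM in CRS and 57.5 ± 1.93 CPM in noCRS, and the log2 fold change was -0.89 ± 0.47 (SE; edgeR adjusted p = 0.484). Its share of the Lrrtm sum per kilobase was 16.6, 4.02, 7.85 and 12.2% in CRS and 17.1, 17.8 and 17.5% in noCRS.

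Lrrtm2 (chromosome 18, 35209003 to 35215024, minus strand) measured 145, 92.7, 201 and 189.9 CPM in CRS and 122, 139 and 129 CPM in noCRS. CRS replicate 2 was the lowest of the 7 libraries and the other CRS libraries were above every noCRS library. With means of 157 ± 49.4 CPM in CRS and 130.1 ± 8.83 CPM in noCRS, the log2 fold change was 0.27 ± 0.26 (SE; edgeR adjusted p = 0.800). With 1 library left out the fit gave 0.11 (without CRS replicate 3) to 0.44 (without CRS replicate 2), and the lowest adjusted p of these was 0.320.

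Lrrtm3 (chromosome 10, 63928472 to 64090277, minus strand) had the highest level per kilobase of the 9 genes in every library. It measured 247, 314, 206 and 237 CPM in CRS and 280.4, 281 and 270.03 CPM in noCRS. CRS replicate 2 was above the noCRS libraries and the other CRS libraries below them. The means were 251 ± 45.3 CPM in CRS and 277 ± 6.15 CPM in noCRS, and the log2 fold change of -0.14 ± 0.17 (SE; edgeR adjusted p = 0.852) had the narrowest interval of the 9, from 0.693-fold to 1.18-fold. For comparison, Snap25 was 17.4-fold higher in CRS in the same libraries, and the part of neuronal RNA in the Lrrtm3 values was not tested.

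Lrrtm4 (chromosome 6, 80018877 to 80810143, plus strand) had 1068, 0, 388 and 694 counts in CRS replicates 1 to 4 and 935, 284 and 611 counts in noCRS. That is 32.3, 0, 12.8 and 18.1 CPM in CRS and 22.6, 9.12 and 18.8 CPM in noCRS. The count of 0 in CRS replicate 2 allows a level of up to 0.0936 CPM, which is 3 counts in that library and covers counting error only. The CRS mean was 15.8 ± 13.3 CPM with all 4 libraries, 21.0 CPM without replicate 2 and 10.3 CPM without replicate 1, beside 16.8 ± 6.94 CPM in noCRS. Its log2 fold change was -0.09 ± 1.36 (SE; edgeR adjusted p = 0.993), 0.30 without CRS replicate 2 and -0.71 without CRS replicate 1. Of its exon length 25.1% overlaps Gm4409 on the other strand, which was also at 0 in CRS replicate 2 and otherwise measured 4.29 to 21.1 CPM in CRS and 3.24 to 10.3 CPM in noCRS.

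**Figure D4:**
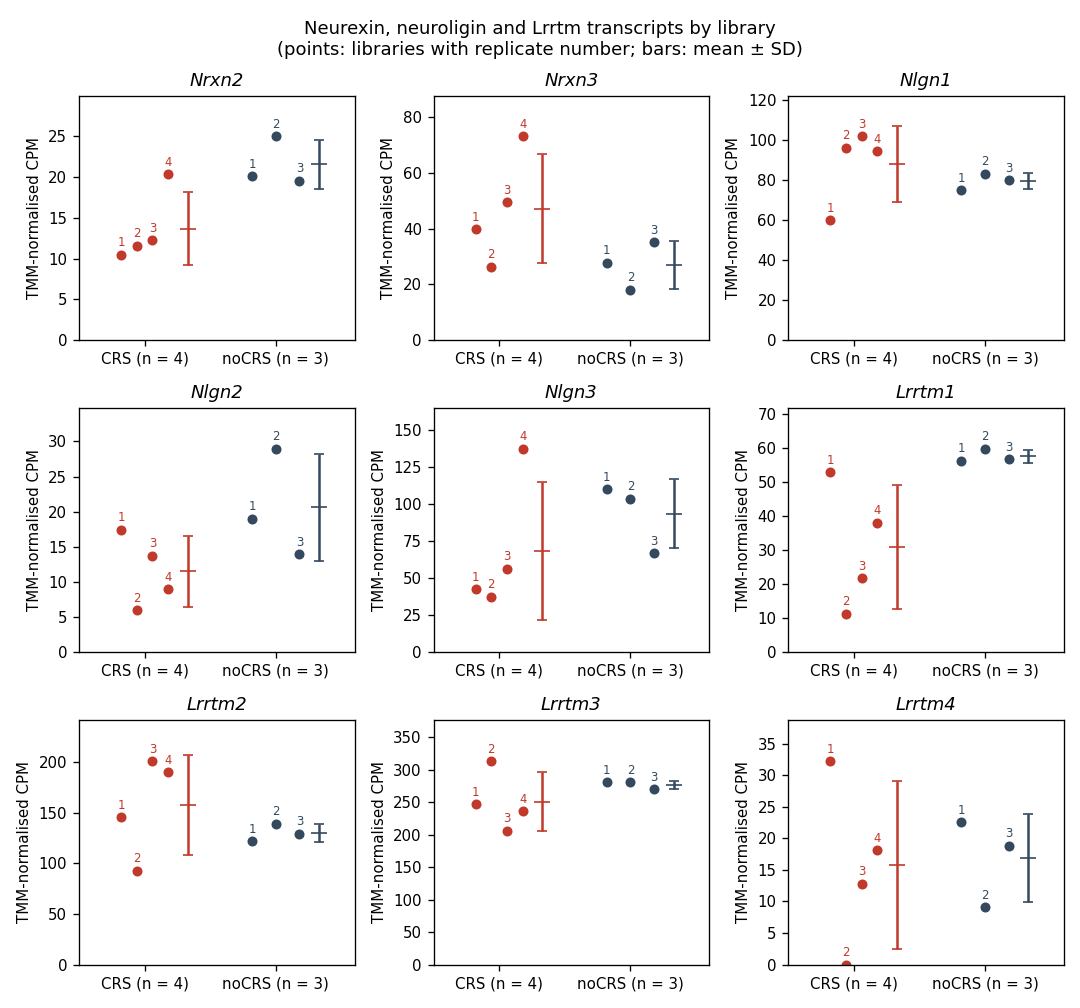
TMM-normalised CPM of each adhesion gene in each library (points with replicate numbers), with the mean and SD of each group, CRS left and noCRS right. Only for Lrrtm1 do the groups not overlap; Nlgn3 in CRS replicate 4 (137 CPM) and Lrrtm4 in CRS replicate 2 (0 CPM) lie at the ends of their CRS groups.

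CRS replicate 2 had the lowest level of Lrrtm1, Lrrtm2, Lrrtm4, Nlgn2 and Nlgn3 among all 7 libraries and the highest level of Lrrtm3. The coefficient of variation was higher in CRS than in noCRS for each of the 9 genes, although the SD of Nlgn2 was lower in CRS. It ran from 18.1% (Lrrtm3) to 84.5% (Lrrtm4) in CRS and from 2.22% (Lrrtm3) to 41.2% (Lrrtm4) in noCRS. The difference in variation was not tested. The share of all tested genes that varied more in CRS is not given here, so this trait cannot be read as particular to the 9 genes.

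Ordered by level per kilobase of exon, Lrrtm3 stood first in both groups, at 59.0 ± 10.7 CPM per kilobase in CRS and 65.2 ± 1.45 in noCRS, a mean over all libraries that lay at percentile 94.4 of the tested genes. Lrrtm2 followed at 26.1 ± 8.20 in CRS and 21.6 ± 1.47 in noCRS, and Lrrtm1 at 10.2 ± 6.02 in CRS and 19.0 ± 0.64 in noCRS. Next came Nlgn3 (7.38 ± 5.02 in CRS and 10.1 ± 2.50 in noCRS) and Nlgn1 (6.55 ± 1.42 in CRS and 5.91 ± 0.30 in noCRS). The remaining genes averaged between 0.99 and 3.72 CPM per kilobase in CRS and between 1.56 and 3.57 in noCRS, with Nrxn2 lowest in both and at percentile 26.3 of the tested genes. In noCRS the ranges of the first 5 genes and the sixth, Nlgn2, did not overlap between neighbours, whereas Nlgn2, Lrrtm4 and Nrxn3 each overlapped with the next in order, Nrxn2 being the last. In CRS only Lrrtm3 was clear of its neighbour, and each pair of neighbours from Lrrtm2 down to Nrxn2 overlapped in range.

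Partners inside the cell were the group around these genes that held calls. Of 18 intracellular partners of neurexins and neuroligins, 2 rose and 0 fell (edgeR; 2.07% of all tested genes were called higher and 0.230% lower), and their median log2 fold change was 0.41 beside -0.02 over all tested genes. One of the 2 called genes was Sdcbp, the PDZ protein syntenin, which binds the neurexin tail. It measured 696, 1136, 789 and 695 CPM in CRS and 358, 357 and 407 CPM in noCRS, and every CRS library was above every noCRS library, for a log2 fold change of 1.15 ± 0.21 (SE; edgeR adjusted p = 0.0303). Its call was lost when any single library other than CRS replicate 2 was left out (adjusted p up to 0.145), while the log2 fold change then stood at 1.12 to 1.22. The neuronal markers Snap25 and Gad1 were higher in CRS in the same libraries, at 2090.0 to 3503 CPM for Snap25 in CRS and 102 to 217 CPM in noCRS, and their part in the Sdcbp values was not tested. Lin7a and Lin7b, which form a complex with Cask under the neurexin tail, were short of the threshold: Lin7a measured 16.2 to 37.3 CPM in CRS and 6.85 to 9.43 CPM in noCRS (edgeR adjusted p = 0.0715), and Lin7b 20.5 to 41.0 CPM in CRS and 0.31 to 9.07 CPM in noCRS (adjusted p = 0.209). The postsynaptic scaffolds that neuroligins bind did not pass: Dlg4 measured 0.06 to 5.27 CPM in CRS and 1.14 to 11.7 CPM in noCRS, and Gphn, the scaffold of inhibitory synapses, 85.02 to 157 CPM in CRS and 86.8 to 101 CPM in noCRS. Dlg4 and Gphn were chosen after their values were seen.

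Of 15 extracellular ligands and modulators, 11 were tested and edgeR called 0, with an unadjusted p under 0.05 for 4 of 11, beside 13.6% of all tested genes. DESeq2 called 4 of 11 (9.14% of all its genes) and limma-voom called 1 (3.58%). The median log2 fold change was -0.23, and the 4 of smallest p had fold changes of both signs. Cbln2, a cerebellin that links neurexins to postsynaptic receptors, measured 19.5, 10.8, 45.6 and 40.6 CPM in CRS and 1.52, 0 and 0.83 CPM in noCRS (edgeR adjusted p = 0.0965). Nxph1, a neurexophilin that binds alpha-neurexins, measured 257, 442, 280.0 and 268 CPM in CRS, against 633, 534 and 542 CPM in noCRS (adjusted p = 0.0874). For Igsf21, a partner of neurexin 2 at inhibitory synapses, the levels were 32.4 to 61.0 CPM in CRS and 65.4 to 105 CPM in noCRS (adjusted p = 0.164). Dag1, dystroglycan, measured 20.8 to 39.6 CPM in CRS and 36.8 to 72.0 CPM in noCRS (adjusted p = 0.209). Only Dag1 of these 4 overlapped between the groups, but the 4 were picked by smallest p. The 4 genes that DESeq2 called were these same ones. Its adjusted p was 5.3e-05 for Cbln2, 0.0062 for Nxph1, 0.025 for Igsf21 and 0.045 for Dag1. The 1 gene that limma-voom called was Nxph1 (limma-voom adjusted p = 0.0096). Over the list the groups did not overlap for 5 of 11 tested genes, beside 16.9% of all tested genes.

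Other synaptic adhesion organisers were represented by 37 genes, of which 36 were tested. edgeR and limma-voom called 0 and DESeq2 called 2, beside 9.14% of all its genes. In the edgeR fit 7 of 36 had an unadjusted p under 0.05, beside 13.6% of all tested genes, and the median log2 fold change was 0.08. The smallest p belonged to the teneurin Tenm2, at 5.81 to 25.9 CPM in CRS and 0.39 to 4.01 CPM in noCRS. Flrt3, a ligand of latrophilins, followed at 166 to 254 CPM in CRS and 119 to 151 CPM in noCRS. The receptor phosphatases had fold changes of opposite sign, with Ptprd at 243 to 452 CPM in CRS and 193 to 229.9 CPM in noCRS, and Ptprs at 27.8 to 53.0 CPM in CRS and 57.7 to 68.4 CPM in noCRS. The adjusted p of these 4 genes ran from 0.243 to 0.283. Of 9 genes for neurexin splicing and shedding 8 were tested and edgeR called 0, as did DESeq2 and limma-voom, while 1 of 8 had an unadjusted p under 0.05, near the 13.6% of all tested genes. The smallest p belonged to Khdrbs3, whose protein SLM2 controls a neurexin splice choice, at 31.0 to 49.2 CPM in CRS and 4.04 to 27.5 CPM in noCRS (edgeR adjusted p = 0.305). Next by p were the shedding protease Adam17 (47.9 to 64.6 CPM in CRS and 65.5 to 106 CPM in noCRS) and the splicing repressor Ptbp1 (38.5 to 66.7 CPM in CRS and 19.9 to 45.2 CPM in noCRS).

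**Figure D5:**
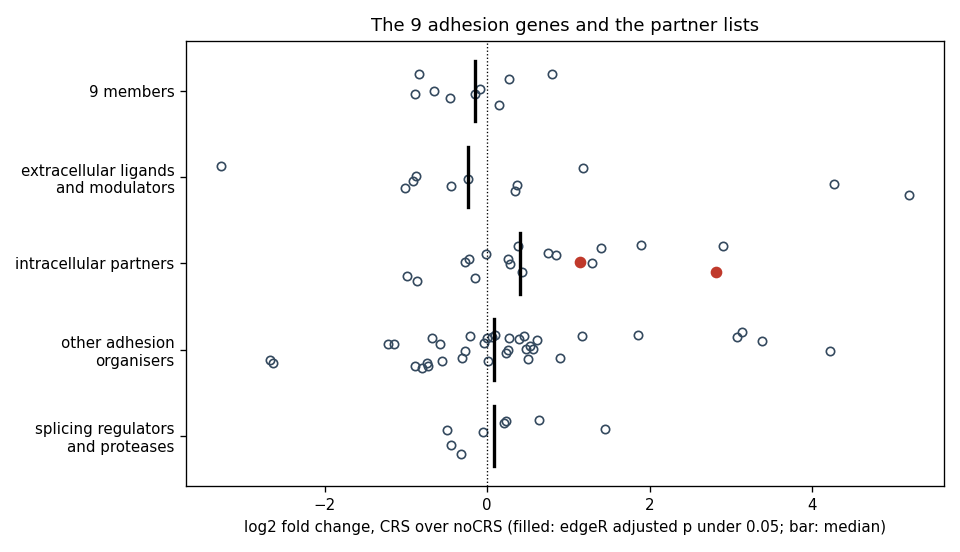
Log2 fold change, CRS over noCRS, of the 9 adhesion genes and of the tested genes in each partner list (1 point per gene; filled points passed edgeR's adjusted p of 0.05; black bars are medians). The only filled points are 2 intracellular partners, Sdcbp among them, and the adhesion genes lie between -0.89 and 0.80.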

How the data were processed

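The deposited file gives unnormalised whole-number counts for each gene in 7 libraries, with exon coordinates and exon length. The submitters' processing notes name featureCounts, FastQC, DESeq2, HISAT and HISAT2 without versions, and the build GRCm38. Column names that end like default STAR output leave the aligner unsettled. edgeR 4.0.16 ran under R 4.3.3 (TMM factors, default expression filter, quasi-likelihood test, no covariate) on the whole table, 17833 genes tested, threshold 0.05. Intervals of 95% came from the fold change, its SE and the test's degrees of freedom. CPM uses TMM-scaled totals, and levels between genes are per kilobase of deposited exon length. No pair of libraries was a duplicate by chi-square. Alternatives used DESeq2 1.42.0, limma-voom (limma 3.58.1), other scalings and filters, left-out libraries and a replicate block. Scripts were tested on simulated data. The members and lists were chosen with earlier results of these data known. Named partners are all called genes of a list, or its 4 of smallest p; other partners are named as chosen after their values were seen. Some genes under this rule are not reported here. All 9 members had the same span in GENCODE M21. Kits that do not mark strand, per the labels' protocols, leave overlapping genes unresolved.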

Additional observations from a re-analysis of the deposited data

How the results depend on the processing

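Under all 15 alternatives 0 of the 9 adhesion genes was called, and 7 of the 9 kept the sign of their fold change. Nlgn1 turned to -0.015 with total-count scaling. Lrrtm4, whose SE was the widest, ran from -0.71 to 0.30 with 1 library left out, and was positive without noCRS replicate 1 (0.19) or CRS replicate 2 (0.30). The microglial marker P2ry12 ran from -4.87 to 0.25 in the same way, positive without noCRS replicate 3. The 410 calls over all genes became 1631 with DESeq2 and 639 with limma-voom, and 142 to 352 with 1 library left out. Calls higher in CRS (369) became 1221 with DESeq2 and 138 to 313 with 1 library left out. Calls lower in CRS (41) became 64 with total counts, 410 with DESeq2, 117 with limma-voom and 4 to 39 with 1 library left out. Among extracellular ligands the 0 calls became 1 with total counts, 4 with DESeq2, 1 with limma-voom and 0 to 1 with 1 library left out. Among intracellular partners the 2 calls became 4 with DESeq2 and 1 to 2 with 1 library left out. DESeq2 called 2 of the other organisers. The cause of these differences was not tested.

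With the replicate number as a block, which leaves out CRS replicate 4, calls fell to 12 in all, 12 higher and 0 lower, with 0 among intracellular partners. The deviations of same-numbered libraries correlated at r = 0.02, -0.003 and 0.02 across genes. Over all pairs of a noCRS and a CRS library r ran from -0.06 to 0.05. By this measure noCRS replicates 1 and 2 came closest to CRS replicate 4, and noCRS replicate 3 to CRS replicate 3. Values this small cannot show whether the replicate numbers mark a pairing. The intervals of Nrxn2, Nlgn2, Lrrtm1 and Lrrtm4 were wide at 192 or more counts per library, apart from the 0 of Lrrtm4 in CRS replicate 2.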

Other observations

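Among all tested genes outside the 9, the libraries' profile of Lrrtm3, the member of highest mean CPM, was matched most closely by Tspan31 and Unc50. The measure was the root mean square difference of log2 CPM, each gene centred on its mean over 7 libraries, and it was 0.07 for Tspan31, 0.08 for Unc50 and 0.09 for the predicted gene Gm12184. Tspan31 measured 318, 446, 295 and 310.0 CPM in CRS and 374, 419 and 380.1 CPM in noCRS, with CRS replicate 2 highest, as for Lrrtm3. For Nrxn3, the member of smallest p, the closest profiles were 1110002L01Rik, 4921501I09Rik and Elp3, at differences of 0.21, 0.22 and 0.22. Elp3, a subunit of the Elongator complex, measured 71.3, 52.4, 82.7 and 99.0 CPM in CRS and 49.2, 28.7 and 43.9 CPM in noCRS (edgeR adjusted p = 0.189). With 17833 profiles and 7 libraries, close matches are a description and were not tested.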
